A study of Mus musculus with 2 samples.

Results

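The genes described here are 10 members of the interleukin-1 (IL-1) system: the ligand genes Il1a, Il1b and Il18, the antagonist gene Il1rn, the receptor genes Il1r1 and Il1r2, and the genes of the receptor-proximal signalling proteins Myd88, Irak1, Traf6 and Tollip. They were taken as every probe set whose platform annotation names exactly 1 gene and that gene is one of these 10. That gave 14 probe sets, 1 each for 7 genes, 2 each for Il1r2 and Tollip and 3 for Traf6, out of 12422 probe sets that are not controls. The array as a whole holds 8251 genes that can be named in this way.

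The K5 knockout group was skin of newborn mice that carry no functional copy of the keratin 5 gene (K5-/-), and the wild type group was skin of newborn wild type mice. Skin of 6 animals was taken right after birth in each group, and the RNA was combined into 1 pool per group and read on 1 array per pool. Keratin 5 is the type II keratin of basal keratinocytes, and its loss serves as a model of the blistering disorder epidermolysis bullosa simplex (EBS). The labels give neither strain nor sex, nor how the K5 allele was made, and they speak both of epidermis and of skin without describing a separation step. Pooling leaves no spread between animals, and 1 array per group leaves no statistical test, so every value below compares 2 arrays.

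IL-1 alpha and IL-1 beta act through the same receptor, IL-1 receptor type 1. Keratinocytes store IL-1 alpha and release it when they are damaged, whereas IL-1 beta and IL-18 are made as precursors that caspase-1 cleaves. The occupied receptor recruits MyD88, which brings in IRAK kinases, and these hand the signal to the ubiquitin ligase TRAF6 and on to NF-kB and MAP kinases. The IL-1 receptor antagonist (Il1rn) and the decoy receptor (Il1r2) limit this pathway from outside the cell, and TOLLIP limits it inside.

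Values are MAS5 signals, 1 per probe set on a linear scale, after both arrays were brought to the same trimmed mean. A floor of 246.7 signal units was set at the 40th percentile of all signals, and a probe set is called measured here when it lies above the floor on at least 1 array. Of all 12422 probe sets, 7792 were measured. Their log2 ratios of knockout over wild type had a median of 0.04, and 95% of them lay between -0.75 and 0.85. The basal keratins Krt5, Krt14 and Krt15 are abundant in skin, yet their probe sets lay below the floor on both arrays, so the targeted gene could not check the labels. The suprabasal keratin gene Krt1 was bright on both arrays, at 50258 units in the knockout and 41390 units in the wild type.

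None of the 9 measured genes differed by 2-fold or more between knockout and wild type skin, and Il1b was below the floor. Of the 14 probe sets, 13 exceeded the floor in both pools, and 0 of these 13 were at least 2-fold higher or lower in the knockout, against 2.28% of all measured probe sets (1.54% higher and 0.744% lower). At these shares a count of 0 among 13 does not set the members apart. The 13 ratios ran from -0.50 for the receptor gene Il1r1 to 0.49 for the adaptor gene Myd88, with 7 above 0 and 6 below 0. Their median was 0.06, beside 0.04 for all measured probe sets. With 1 probe set per gene, the brightest, 4 measured genes were higher and 5 lower in the knockout, with a median of -0.14, beside 0.04 for all 5976 measured genes.

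**Figure D1:**
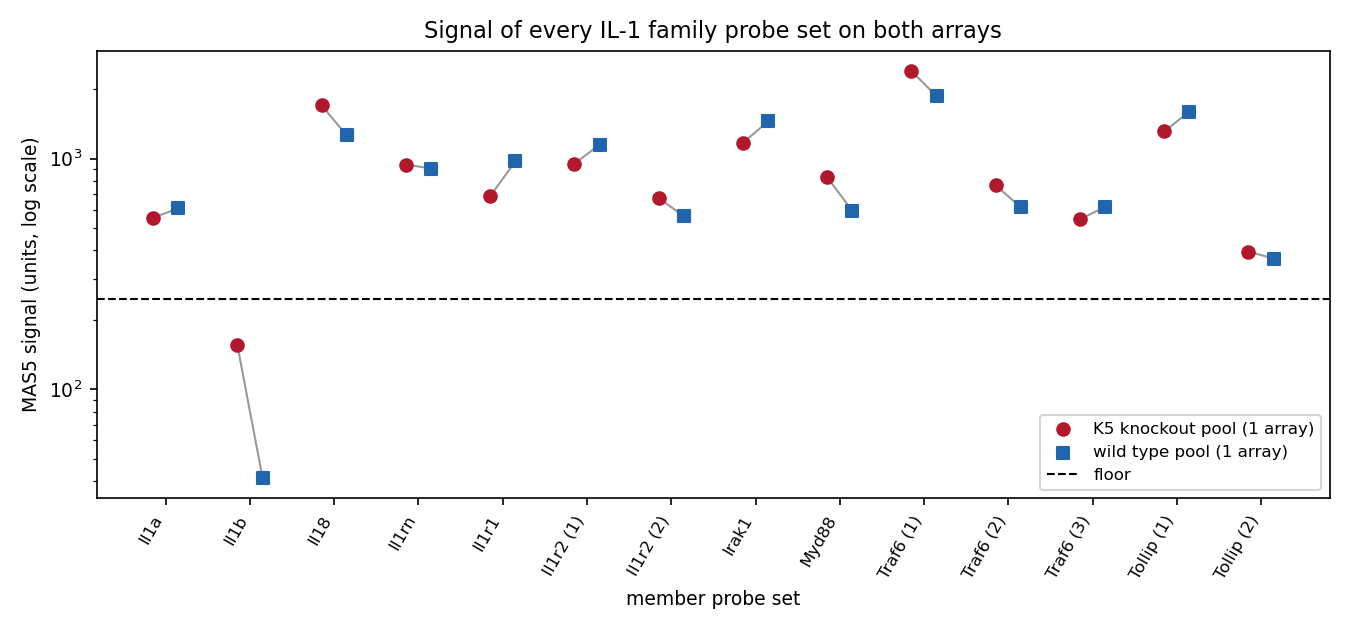
MAS5 signal (log scale) of each of the 14 member probe sets in the K5 knockout pool (circles) and the wild type pool (squares), 1 array each, with the floor of 246.7 units as a dashed line; probe sets of 1 gene are numbered from the brightest. The Il1b probe set is the 1 member below the floor, on both arrays, and the other 13 lie above it on both.

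The available measure of technical error was how far probe sets for 1 gene differ from each other, a standard deviation of 0.30 on the log2 scale over 838 genes. Of the 13 member ratios, 7 lay within 1 such standard deviation of 0 and 6 beyond it. Among all measured probe sets, 58.0% lay within it. The spread of ratios also depends on brightness, so each member was set beside the central 95% of measured probe sets in the same of 10 bins of mean signal. All 13 members lay inside that range.

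**Figure D2:**
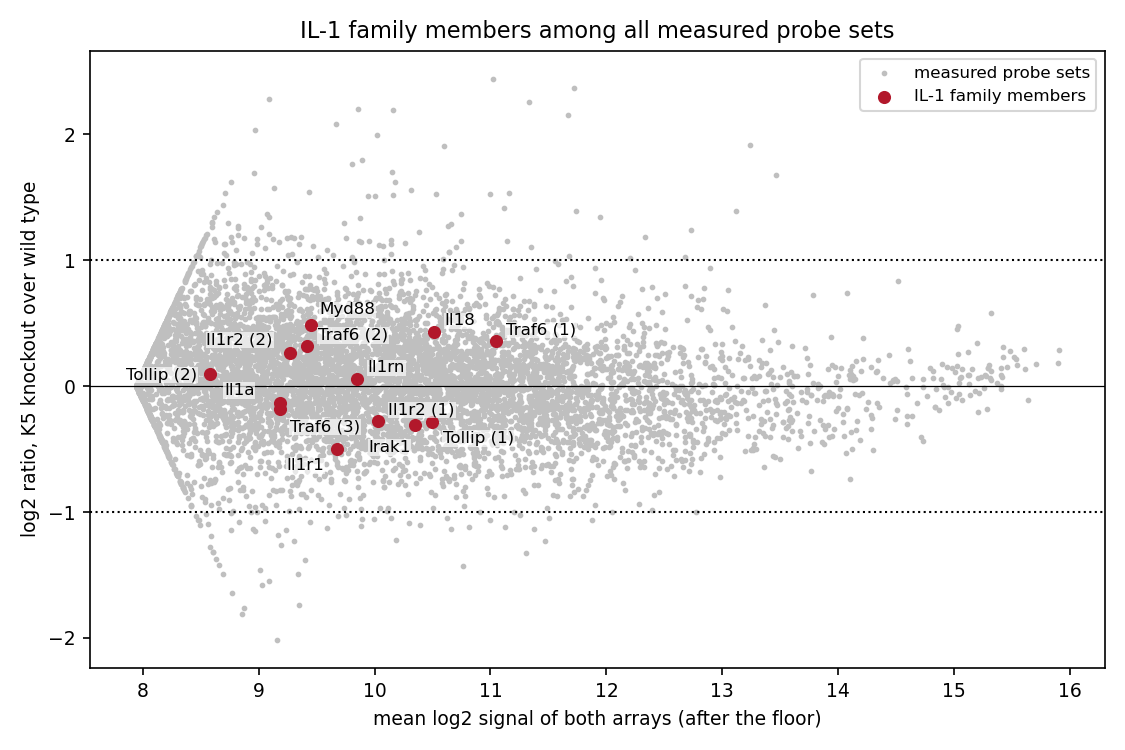
Log2 ratio of K5 knockout over wild type against mean log2 signal for the 7792 measured probe sets (grey), with the 13 measured member probe sets in red and dotted lines at 2-fold. The members sit between -0.50 and 0.49, inside the cloud of other probe sets of like brightness.

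The ligand genes gave 3 different readings: Il18 was higher in the knockout, Il1a was close to its wild type value, and Il1b could not be quantified. Il18 encodes a precursor cytokine held in keratinocytes that induces interferon gamma in lymphocytes. Its probe set read 1700.35 units in the knockout and 1259 units in the wild type, which is a log2 ratio of 0.43 or 1.35-fold. A ratio that high or higher was found in 14.8% of all measured probe sets, and the ratio is 1.46 times the spread between probe sets of a gene. Il1a, the alarmin that keratinocytes release on injury, read 554 units in the knockout and 609 units in the wild type. The log2 ratio of -0.14 is smaller than the spread between probe sets, and 31.2% of measured probe sets were as low or lower.

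Il1b encodes the secreted IL-1 ligand made by activated macrophages and also by keratinocytes, and the labels report it as upregulated in these mice. Its probe set read 156 units in the knockout and 41.3 units in the wild type. Both values are below the floor, so no fold is given. The knockout signal was the higher one by 114 units. Of the 4630 probe sets at the floor on both arrays, 80, or 1.73%, showed a knockout excess that large or larger. In that set 65.8% of probe sets read higher in the knockout, with a median difference of 6.41 units, and 95% of the differences lay between -80.3 and 107 units. The Il1b difference is therefore just outside the central 95% of this set. The set was not matched for level, and 82.9% of it read at or below Il1b on the knockout array. Probe sets that passed the floor on that array are left out of the set. The 1.73% may therefore overstate how unusual the Il1b excess is. With the floor lowered to the 25th percentile, Il1b was above it in the knockout alone, at least 1.79-fold higher.

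The labels name Il6 together with Il1b, and report that genes of the TNF pathway were not involved. Il6, a cytokine that IL-1 induces in many cell types, read 212 units in the knockout and 63.1 units in the wild type. Its difference of 148 units was reached or exceeded by 30 of the 4630 dim probe sets (0.648%). Tnf read 43.5 units in the knockout and 33.0 units in the wild type, and a difference as large as its 10.5 units occurred in 43.6% of them. Of these dim cytokine probe sets, those for Il1b and Il6 lay in the upper tail of the differences and the one for Tnf near the centre. Their levels were unlike. Of the dim probe sets, 82.9% read at or below Il1b in the knockout, 94.7% at or below Il6 and 43.2% at or below Tnf. A dimmer probe set has less room for a difference in units. Larger excesses that carried a probe set past the floor are also absent from the 4630. These places therefore do not test what the labels report.

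**Figure D3:**
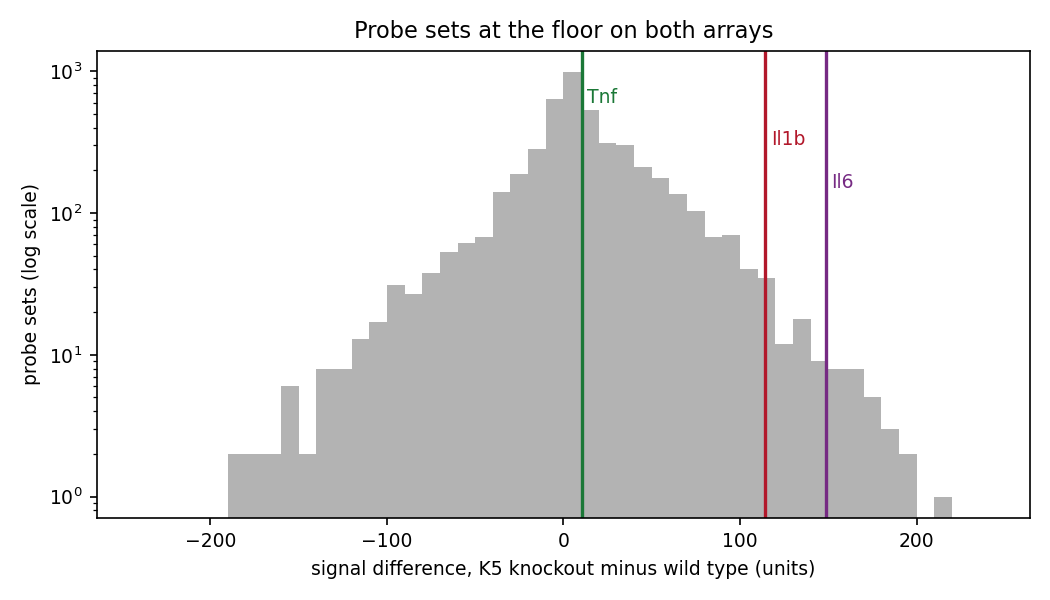
Histogram of the signal difference, K5 knockout minus wild type, for the 4630 probe sets at the floor on both arrays (count on a log scale), with vertical lines at Il1b, Il6 and Tnf. Il1b at 114 units and Il6 at 148 units lie in the right tail, and Tnf at 10.5 units lies near the peak.

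The start regions of the 3 ligand genes are shown because the study's question centres on cytokine induction. Il1a and Il1b are both read from the minus strand of chromosome 2. As Il1b could not be quantified, no difference in ratio between Il1a and Il1b was shown. Each window runs from 250 bases before to 50 bases after the RefSeq start (GRCm38.p6). Capitals mark matches on either strand to the TATA box TATAAA and the AP-1 motif TGANTCA. The Il1a window is chr2:129309923-129310222, minus strand, the Il1b window chr2:129371090-129371389, minus strand, and the Il18 window chr9:50554450-50554749, plus strand.
Il1a: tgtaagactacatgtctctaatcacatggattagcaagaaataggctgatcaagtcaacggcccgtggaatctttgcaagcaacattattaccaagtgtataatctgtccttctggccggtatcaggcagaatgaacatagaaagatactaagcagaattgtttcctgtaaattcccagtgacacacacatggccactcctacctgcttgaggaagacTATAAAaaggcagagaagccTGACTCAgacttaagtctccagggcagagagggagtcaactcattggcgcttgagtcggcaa
Il1b: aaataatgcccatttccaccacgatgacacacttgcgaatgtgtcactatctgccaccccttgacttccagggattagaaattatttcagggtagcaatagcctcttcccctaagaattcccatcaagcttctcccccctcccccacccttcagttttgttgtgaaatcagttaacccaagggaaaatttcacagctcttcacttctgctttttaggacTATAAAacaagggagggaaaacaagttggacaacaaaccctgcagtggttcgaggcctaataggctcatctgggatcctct
Il18: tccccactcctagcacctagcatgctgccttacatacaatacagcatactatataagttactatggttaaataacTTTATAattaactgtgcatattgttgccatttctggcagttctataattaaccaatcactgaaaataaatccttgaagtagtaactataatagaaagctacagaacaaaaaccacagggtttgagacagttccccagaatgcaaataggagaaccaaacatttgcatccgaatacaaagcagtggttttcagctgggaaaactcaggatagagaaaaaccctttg

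The Il1a and Il1b windows each held a TATA box, which ended 26 bases before the start in Il1a and 25 bases before it in Il1b. The match in the Il18 window, on the opposite strand, ended 169 bases before the start. Il1a alone among these 3 held the AP-1 motif, 5 bases before its start. Of all 32851 start windows in the RefSeq table, 13.6% held TATAAA and 7.81% the AP-1 motif. All 10 members had at least 1 window in the table, 14 in all. TATAAA occurred in a window of 5 members and the AP-1 motif in windows of 2 (Il1a and Il1rn). These counts are of members, and Il1rn, Il1r1 and Irak1 had more than 1 window. The shares above are per window, so the counts cannot be set against them. Besides the 3 ligand genes, TATAAA was found in Il1rn, past the start, and in Myd88, where the nearest match ended 154 bases before it. These matches describe the sequence and are not evidence of binding, and motifs outside the windows were not searched.

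The antagonist gene Il1rn gave nearly equal signals. Its product occupies the IL-1 receptor without starting a signal. The probe set read 943 units in the knockout and 905 units in the wild type, which is a log2 ratio of 0.06 and 0.197 times the spread between probe sets of a gene. A second antagonist gene of the wider family is Il1f5, which encodes the antagonist of the IL-36 receptor. It read 6518 units in the knockout and 4649 units in the wild type. Its log2 ratio was 0.49.

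Of the receptor genes, Il1r1 had the lowest ratio of all member probe sets. Il1r1 encodes the signalling receptor for both IL-1 forms and read 687 units in the knockout and 972 units in the wild type, which is a log2 ratio of -0.50. Expressed the other way, the wild type signal was 1.42 times that of the knockout, and 7.41% of measured probe sets had a ratio as low or lower. The ratio is 1.69 times the spread between probe sets of a gene. All 4 measured markers of basal keratinocytes were lower on the same array, with a median log2 ratio of -0.46: Itgb4 was at -0.56, Trp63 at -0.54, Itga6 at -0.38 and Col17a1 at -0.29. Over the 7 markers on the array, of which Krt5, Krt14 and Krt15 were below the floor, the summed signal was 7351 units in the knockout and 9943 units in the wild type. Their part in the Il1r1 value was not tested, and in bulk skin fewer cells of a type and less RNA per cell cannot be told apart.

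Il1r2, the decoy receptor that binds IL-1 without signalling, gave opposite readings from its probe sets. The brighter one read 950 units in the knockout and 1150 units in the wild type, which is a log2 ratio of -0.28. The other read 676 units in the knockout and 562 units in the wild type, which is a log2 ratio of 0.27. The identifier of the dimmer probe set carries a suffix (_f) that marks probes that may not be unique to 1 transcript. The mean of the pair was -0.0046, so no direction can be given for this gene.

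Among the genes that act inside the cell, Myd88 had the highest ratio of all members and Irak1 one of the lower ones. Myd88, the adaptor shared by IL-1 receptors and most Toll-like receptors, read 830.4 units in the knockout and 593 units in the wild type, 1.40-fold with a log2 ratio of 0.49. A ratio that high or higher occurred in 11.9% of measured probe sets. Irak1, the kinase recruited by MyD88, read 1170.5 units in the knockout and 1450.2 units in the wild type, which is a log2 ratio of -0.31. That is about equal to the spread between probe sets of a gene, at 1.04 times it, and 17.2% of measured probe sets were as low or lower.

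Traf6, the ubiquitin ligase that activates the kinases upstream of NF-kB, was read by 3 probe sets that disagreed in direction. The brightest read 2394 units in the knockout and 1864 units in the wild type, which is a log2 ratio of 0.36. A second read 766 units in the knockout and 614 units in the wild type, which is a log2 ratio of 0.32. The dimmest read 546 units in the knockout and 618 units in the wild type, which is a log2 ratio of -0.18. The mean over the 3 was 0.17, with a standard deviation of 0.30 between them.

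Tollip, which binds IRAK1 and restrains it, was likewise divided. The brighter probe set read 1310.2 units in the knockout and 1599 units in the wild type, which is a log2 ratio of -0.29. The dimmer one read 395 units in the knockout and 369 units in the wild type, which is a log2 ratio of 0.10, which turned to -0.02 with quantile normalization and -0.03 with the lowess correction. All 3 members with more than 1 measured probe set thus had both directions, against 38.5% of the 948 genes on the array with at least 2 measured probe sets. The median range between probe sets of a gene was 0.54 for these 3 members and 0.27 for the 948 genes.

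**Figure D4:**
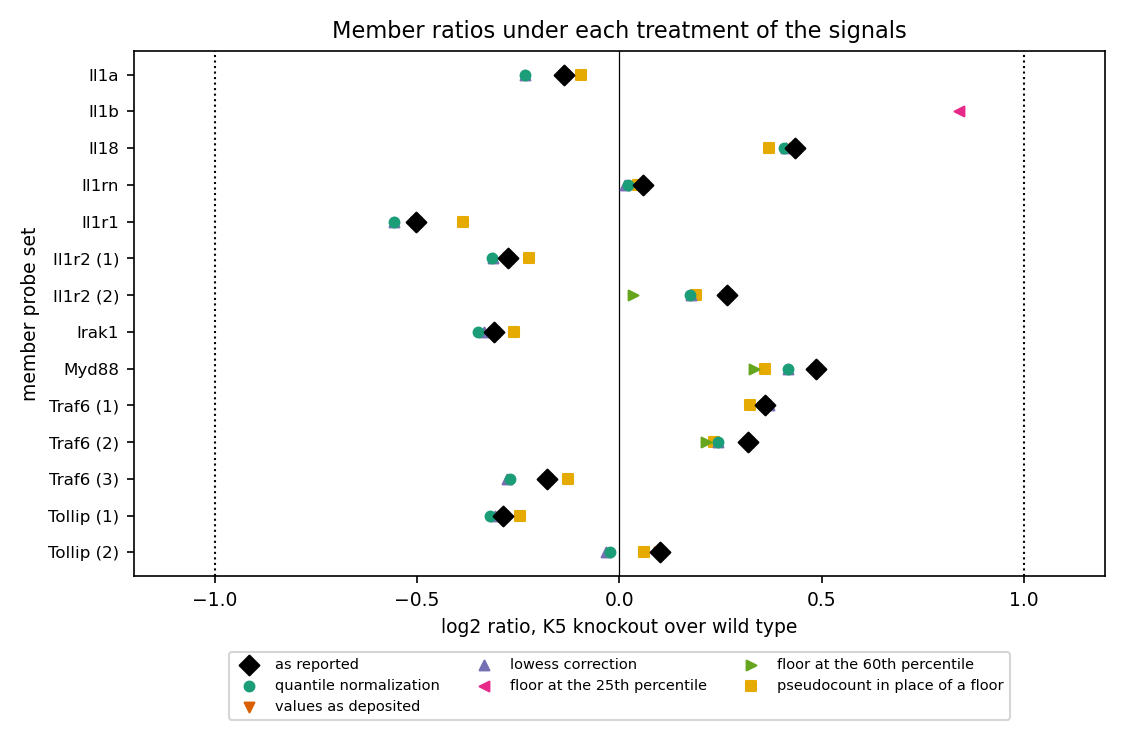
Log2 ratio of K5 knockout over wild type for each of the 14 member probe sets as reported (black diamonds) and under 6 other treatments of the signals (coloured), with dotted lines at 2-fold. Every value lies inside the 2-fold lines, Il1b has a value with the lower floor alone (a bound of 0.84), and the dimmer Tollip probe set, Tollip (2), is the one with values on both sides of 0.

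The remaining genes of the pathway were taken from lists of other family members, of maturation, of signalling and of IL-1 induced genes, with 1 probe set per gene. The lists were drawn up with earlier results of these arrays known, so neither their directions nor their counts of genes at least 2-fold different are independent evidence. Of all 5976 measured genes, 2.24% were at least 2-fold different, 1.54% higher and 0.703% lower in the knockout, and 53.9% had a ratio above 0. With quantile normalization the median of all genes was -0.0037 in place of 0.04, and the genes at least 2-fold different were 79 higher and 59 lower, in place of 92 higher and 42 lower.

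Among other IL-1 family ligands and receptors, 5 of 19 listed genes were on the array and Il1f5 was the 1 above the floor. The co-receptor gene Il1rap, which IL-1 signalling requires, read 55.6 units in the knockout and 140 units in the wild type, both below the floor. The IL-18 receptor genes Il18r1 and Il18rap and the IL-18 binding protein gene Il18bp were also below it on both arrays.

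No measured gene of IL-1 and IL-18 maturation differed by 2-fold. Of 15 on the array, 10 were measured, 3 higher and 7 lower, with a median of -0.12. Casp1, the protease that activates IL-1 beta and IL-18, was below the floor on both arrays, with 160.2 units in the knockout and 205 units in the wild type. Casp8, which can also cleave the IL-1 beta precursor, had the lowest ratio at -0.45, and the calpain gene Capn2 was at -0.37. Calpains process the IL-1 alpha precursor. Above 0 were Serpinb9, a serine protease inhibitor gene above the floor in the knockout alone, at a bound of 0.46, the neutrophil elastase gene Elane at 0.44 and P2rx7, the ATP-gated channel that triggers IL-1 beta release, at 0.20.

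Genes of IL-1 receptor signalling were split almost evenly. Of 30 on the array, 27 were measured, with 13 higher, 14 lower, 0 at least 2-fold different and a median of -0.003. Among genes that exceeded the floor in both pools, the highest ratios belonged to the MAP kinase cascade genes Map2k4 at 0.50 and Map3k1 at 0.43, and to the NF-kB subunit gene Nfkb2 at 0.34. The lowest belonged to Map3k8, a kinase of the ERK branch, at -0.41, Map2k6, a p38 activator, at -0.36, and Peli1, a ubiquitin ligase that acts with IRAKs, at -0.34. With the floor at the 25th percentile 1 gene of the list, Tnfaip3, was at least 2-fold higher (a log2 ratio of 1.71). Among Toll-like receptors and proteins that present lipopolysaccharide to them, 2 of 5 genes on the array were measured: the co-receptor gene Cd14 was at 0.58 and the binding protein gene Lbp at 0.87. Tlr6 and Tlr7 were below the floor on both arrays.

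Of the genes known to be induced by IL-1 that lay above the floor on both arrays, most were higher in the knockout. They numbered 20 of the 41 on the array, 18 higher and 2 lower, with a median log2 ratio of 0.75 beside 0.03 for all 5518 genes above the floor on both arrays. At least 2-fold higher were 5 of the 20, against 1.38% of those 5518 genes (76), and 0 were at least 2-fold lower. As the list was drawn up with earlier results of these arrays known, this count is no independent evidence. The 5 were Zfp36, whose product marks cytokine mRNAs for decay, the neutrophil attractant gene Cxcl1, the wound keratin genes Krt16 and Krt6a, and the monocyte attractant gene Ccl2. Zfp36 read 5633 units in the knockout and 1180.2 units in the wild type, and Cxcl1 1986 units in the knockout and 433 units in the wild type. The folds were 4.77 for Zfp36, 4.59 for Cxcl1, 4.58 for Krt16, 2.67 for Krt6a and 2.12 for Ccl2. Another 7 genes, Cxcl2, Cxcl5, Ccl7, Sele, Tnfaip3, Bcl3 and Fgf7, lay above the floor in the knockout alone, so the floor fixed their direction and they have bounds only. The bounds were 4.10-fold for the NF-kB cofactor gene Bcl3 and 2.23-fold for the monocyte attractant gene Ccl7, and the other five were under 2-fold. Markers of macrophages were higher on the same array, 10 of 10 measured with a median of 0.54. The feedback genes Nfkbia and Tnfaip3, which also belong to the signalling list and restrain NF-kB, were at 0.12 and at a bound of 0.34. The lower ones were Tnfaip6 at -0.30 and Sod2 at -0.13, and Lcn2 was at 0.03.

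These genes are induced by other signals as well, and the count depended on the treatment of dim signals. With the 7 bounds included, 27 genes were measured with a median of 0.55, and 7 were at least 2-fold higher, against 1.54% of all measured genes. That count was 13 with the floor at the 25th percentile, 4 with the floor at the 60th and 5 when a pseudocount replaced the floor. Ccl2 was under 2-fold with the pseudocount (0.82) and with quantile normalization (0.997). With the higher floor Ccl2 and Bcl3 had lower bounds of 0.76 and 0.62, which are not counted and do not show ratios under 2-fold. Ccl7 was under 2-fold with the pseudocount (0.84) and not measured with the higher floor. Zfp36 has no plain probe set, so its value rests on a probe set whose identifier marks shared probes. Krt6a and Krt16 have close relatives among the keratins, and their single values are uncertain.

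**Figure D5:**
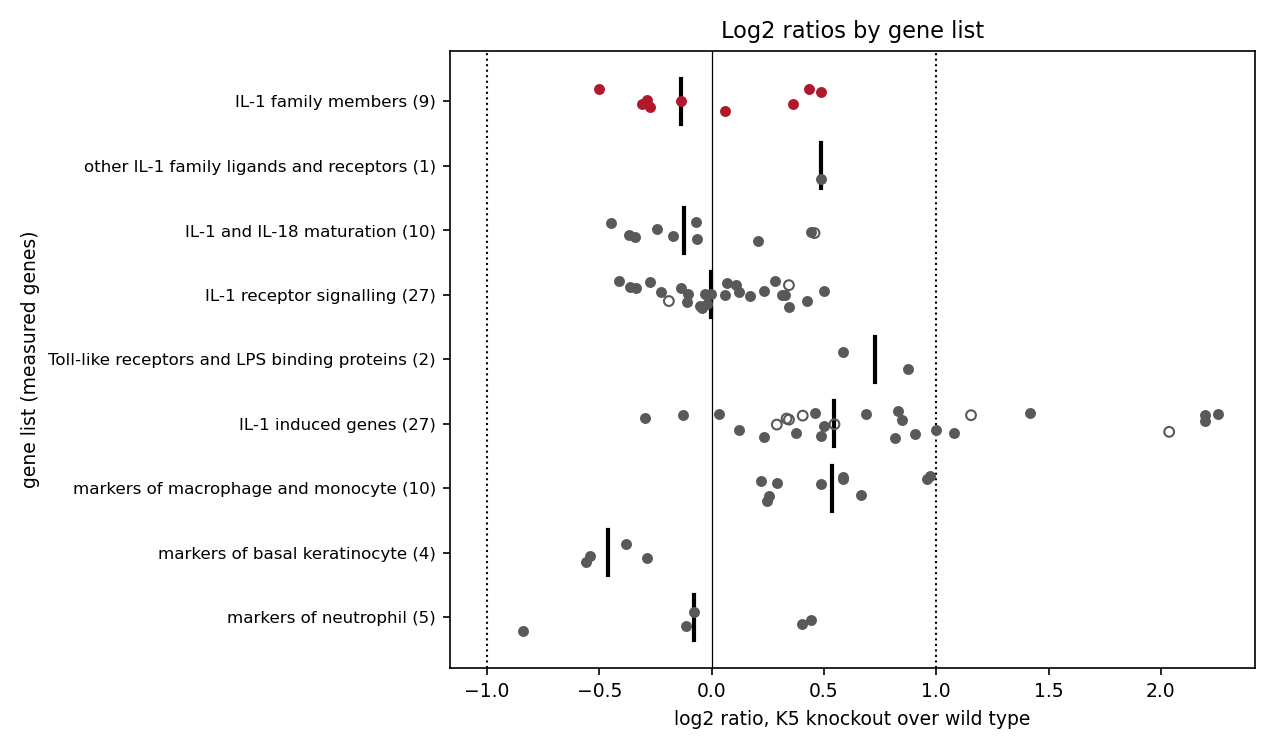
Log2 ratio of K5 knockout over wild type for the measured genes of each list, 1 point per gene, with the number measured in parentheses, bars at the medians, open circles for bounds and dotted lines at 2-fold. The IL-1 family members (red) spread on both sides of 0 with a median of -0.14, and the IL-1 induced genes have a median of 0.55, which includes 7 bounds whose direction the floor fixed.

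Markers of macrophages and monocytes, cells that make IL-1 beta and IL-18 and use MyD88, were higher on the knockout array. Of 11 on the array, 10 were measured and all 10 were higher, with a median of 0.54, and the summed signal of the 11 was 15906 units in the knockout and 11212 units in the wild type. Adgre1, the gene of the F4/80 antigen, was at 0.97, the complement gene C1qb at 0.96 and the mannose receptor gene Mrc1 at 0.67. The integrin gene Itgam was the 1 marker below the floor on both arrays. As the mean over probe sets the list had 9 higher and 1 lower gene, C1qb at -0.02, with a median of 0.39. The part of these cells in the Myd88, Il18 and Il1b values, and in those of the IL-1 induced genes, was not tested.

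Neutrophil markers, whose cells carry Il1r2 and Il1rn, had 5 of 10 measured, 2 higher and 3 lower, with a median of -0.08 and summed signals of all 10 of 4726 units in the knockout and 5021 units in the wild type. The 3 lower ones were the granule protein gene Camp at -0.84, S100a8 at -0.08 and S100a9 at -0.11. The 2 higher ones were Elane at 0.44 and Csf3r at 0.40. Mast cell markers had a median of -0.0048 over 5 measured genes, T cell markers one of -0.18 over 2, B cell markers one of -0.02 over 2, and markers of Langerhans and dendritic cells one of -0.15 over 5. Suprabasal keratinocyte markers had a median of 0.29 over 6 genes, 4 higher and 2 lower, and of 0.13 with quantile normalization. Ivl, a cornified envelope precursor gene, was 2.41-fold higher, and the lower ones were Krt2 at -0.51 and Krt10 at -0.18. Fibroblast markers had a median of 0.29 over 6 genes, 5 higher and 1 lower, Lum at -0.22. Among them Pdgfra, a growth factor receptor gene, was 2.03-fold higher (a log2 ratio of 1.02, 0.97 with the pseudocount and 0.68 as the mean over probe sets). Skeletal muscle markers had a median of 0.24, with 7 of 7 measured genes higher, beside 53.9% of all measured genes. Among them Actn2 was above the floor in the knockout alone, so the floor fixed its direction. With quantile normalization 6 were higher and 1 lower, Acta1 at -0.04. Myh4 was below the floor on both arrays. Endothelial markers had a median of 0.17 over 5 genes and of -0.15 over 2 genes with the floor at the 60th percentile.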

How the data were processed

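Gene expression was measured in 1 pool of K5 knockout skin and 1 pool of wild type skin, with 6 animals and 1 array each. The deposited intensities are linear, 1 per probe set. Per the submitters' processing notes they were made with MAS5, whose version, scaling target and detection calls are not given in the sources used here. Deposited 2% trimmed means were 994 on both arrays.

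The arrays were rescaled to a common 2% trimmed mean, a floor was set at the 40th percentile of both arrays (246.7 units), and log2 was then taken (Python 3.11.15, numpy 2.4.6, pandas 2.3.3). A value at the floor on 1 array gives a bound, and at the floor on both gives no ratio. Genes were named from probe sets with 1 symbol (10833 of 12422), 10817 of them matched in RefSeq by Entrez identifier. With 1 array per group no test was run, and called means at least 2-fold. The calculation was tested on simulated data in which only probe sets well above the floor were altered. Recovery of changes in dim probe sets was not tested. Precision is limited by there being 2 arrays.

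The members and lists were chosen with earlier results of these data known. Named were every member probe set, and from each list the genes at least 2-fold different and the 3 highest and 3 lowest ratios above the floor on both arrays, with a selection of these and some dim or otherwise relevant genes given in the text, the latter chosen after their values were seen. Alternatives were quantile normalization, values as deposited, a lowess correction (statsmodels 0.14.6), floors at the 25th and 60th percentile, a pseudocount equal to the floor, the mean over probe sets, genes above the floor on both arrays only, no filter, and plain probe sets only.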

Additional observations from a re-analysis of the deposited data

How the results depend on the processing

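None of the 13 measured member probe sets reached 2-fold under any of the 6 alternative treatments of the signals. All 75 ratios that these gave for them lay within 0.30 of the reported value on the log2 scale. Not all of the 75 could move. The values as deposited differ from the reported ones by scale factors of 1.0001 and 0.9999 alone. All 13 already lay above the reported floor on both arrays, so the lower floor left their ratios unchanged. Probe sets above the higher floor on both arrays were fixed under it in the same way. Il1b had a value with the floor at the 25th percentile alone. That value is a lower bound of 0.84, so whether Il1b differed by 2-fold is undetermined. Of 13 measured member probe sets, 12 kept their sign throughout, the dimmer Tollip probe set being the exception. The median of the member genes was -0.0046 with the mean over probe sets and -0.0246 without a filter. The share of measured probe sets at least 2-fold different was 4.57% with the floor at the 25th percentile, 1.38% with the floor at the 60th and 0.95% when a pseudocount replaced the floor. The higher floor and the pseudocount shrink ratios of dim genes by construction.

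For other IL-1 family ligands and receptors the median was -0.27 over 4 genes with the lower floor and -0.22 over 5 without a filter, in place of 0.49 for Il1f5 alone. The Toll-like receptor list had medians of 0.41 and 0.29 under these settings, over 5 genes each. The signalling list had 1 gene at least 2-fold different with the lower floor and a median of 0.0604 with the mean over probe sets. For IL-1 induced genes the median was 0.48 with quantile normalization and with the lowess correction (0.4786 and 0.4793). It was 0.88 with the lower floor, 0.62 with the higher floor and 0.69 with the pseudocount. At least 2-fold higher were 13 of 30 with the lower floor and 4 of 15 with the higher floor. The same counts over all measured genes were 205 of 7061 and 44 of 4269. The list median was 0.75 for genes above the floor in both pools, 0.37 without a filter and 0.617 with plain probe sets. The causes of these shifts were not tested. Of 109 alternative medians of the marker lists, 11 moved by more than 0.30 divided by the square root of the number of genes. No paired analysis was possible because each group is 1 pool on 1 array, and leaving out a replicate was not possible for the same reason.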
